A study of Homo sapiens with 4 samples.

Results

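Osteomimicry is the expression of bone cell genes by tumor cells, and 10 genes of the osteoblast and its matrix were compared here between PC-3 and PC-3-BM cells. The genes were *RUNX2*, *SP7*, *SPARC*, *SPP1*, *IBSP*, *BGLAP*, *ALPL*, *OSTN*, *MGP* and *DMP1*. Each gene was taken from the probe set that the array annotation gives to that gene alone. This left 9 of the 10 genes among 18417 gene symbols, each with 1 probe set, because the only probe set found for *BGLAP* is annotated also to the readthrough transcript *PMF1-BGLAP*. That probe set is described separately and was not counted as *BGLAP*.

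PC-3 is a human prostate cancer cell line derived from a bone metastasis, and the parental cells are labelled as poor in metastatic potential. PC-3-BM, labelled as highly metastatic, is a derivative that the study isolated from the long bones of athymic nude mice after the third round of intracardiac injection, with expansion in culture, geneticin selection and sorting for green fluorescent protein. The study calls it a clone, and both lines carry luciferase and green fluorescent protein. Each line was measured on 2 Affymetrix Human Gene 1.0 ST arrays, so the number of arrays limits the precision. No label names separate cultures, and the p-values therefore cover array-to-array spread, possibly technical, and no more. The labels speak of growth in mice and the methods of culture, so it was not settled in which state RNA was taken.

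Osteoblasts build bone in stages. *RUNX2* commits precursors to the lineage and *SP7* (osterix) acts downstream of it, after which alkaline phosphatase (*ALPL*), bone sialoprotein (*IBSP*), osteopontin (*SPP1*), osteonectin (*SPARC*) and osteocalcin (*BGLAP*) are made and mineral is laid down on collagen I. *DMP1* marks the osteocyte, *MGP* keeps cartilage and vessels free of mineral, and *OSTN* encodes osteocrin, a peptide of osteoblasts and muscle. Prostate cancer that spreads to bone is known for switching on some of these genes.

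The promoters of the 3 genes that changed are shown first, because *RUNX2* is both a member and a regulator of osteoblast genes. They run from 250 bases before to 50 bases after the gene start (RefSeq, GRCh38.p14), 5′ to 3′ on the gene's strand. The start is base 251. Capitals mark the core RUNX motif in the form TGTGGT, or ACCACA on the other strand. Other forms of the motif, such as TGCGGT, were not searched. The distal *RUNX2* promoter lies at chr6:45328080-45328379 (+), the proximal at chr6:45422025-45422324 (+), that of *SPARC* at chr5:151686866-151687165 (-) and that of *OSTN* at chr3:191198991-191199290 (+).
RUNX2 distal: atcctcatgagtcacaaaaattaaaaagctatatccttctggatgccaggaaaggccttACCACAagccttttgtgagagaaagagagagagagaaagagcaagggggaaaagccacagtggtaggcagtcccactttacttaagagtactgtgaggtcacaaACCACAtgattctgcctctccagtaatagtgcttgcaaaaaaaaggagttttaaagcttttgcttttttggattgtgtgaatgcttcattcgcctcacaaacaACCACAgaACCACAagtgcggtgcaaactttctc
RUNX2 proximal: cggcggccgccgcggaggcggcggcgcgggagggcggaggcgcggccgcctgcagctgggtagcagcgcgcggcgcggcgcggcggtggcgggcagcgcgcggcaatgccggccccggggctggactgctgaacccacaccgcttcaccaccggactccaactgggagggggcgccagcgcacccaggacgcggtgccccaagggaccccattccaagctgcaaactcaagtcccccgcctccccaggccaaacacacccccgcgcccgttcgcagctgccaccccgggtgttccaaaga
SPARC: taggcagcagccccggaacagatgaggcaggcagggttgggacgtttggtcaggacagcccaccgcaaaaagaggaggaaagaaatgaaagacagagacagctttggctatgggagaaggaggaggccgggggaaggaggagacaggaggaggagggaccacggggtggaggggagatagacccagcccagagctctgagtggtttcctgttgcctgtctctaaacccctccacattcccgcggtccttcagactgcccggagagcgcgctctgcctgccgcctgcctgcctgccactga
OSTN: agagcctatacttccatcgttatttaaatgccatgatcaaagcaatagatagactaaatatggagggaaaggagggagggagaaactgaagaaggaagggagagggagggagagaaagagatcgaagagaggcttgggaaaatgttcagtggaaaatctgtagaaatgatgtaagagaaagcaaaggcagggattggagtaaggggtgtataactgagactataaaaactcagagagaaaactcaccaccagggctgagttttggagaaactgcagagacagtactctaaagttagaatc

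The distal *RUNX2* promoter held the motif 4 times, beginning at bases 60, 164, 267 and 275, the last pair downstream of the start. Of 35116 promoters of this length, 13.1% held the motif at least once and 5 (0.0142%) held it 4 times or more, a count looked up after the match was seen. The proximal *RUNX2* promoter and those of *SPARC* and *OSTN* held none of the searched form. The array has 1 probe set for *RUNX2* and does not separate transcripts of its promoters.

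Another 3 members held the motif once. Their motifs are shown with the 12 bases on either side, from the windows of *SPP1* (chr4:87975464-87975763, +), *BGLAP* (chr1:156241934-156242233, +) and *DMP1* (chr4:87650030-87650329, +), because these genes are classical markers downstream of *RUNX2* and their probe sets did not pass the test.
SPP1: ttttttgttttaACCACAaaaccagagggg
BGLAP: ccgcagctcccaACCACAatatcctttggg
DMP1: agtcatttgggaACCACAagagctttttag

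The window of *IBSP* and the 3 windows of *ALPL* had no match to the searched form. The motif is a description of these letters and says nothing of binding. *SP7* and *MGP* are named without a promoter.

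*OSTN* and *RUNX2* rose in PC-3-BM, *SPARC* fell, and the other 6 genes did not pass the test. Rose and fell are used of an adjusted p below 0.05 in limma, a linear model with moderated variances, adjusted by Benjamini-Hochberg over all 33297 probe sets. By this rule 23.2% of all probe sets were called, 11.6% higher and 11.6% lower, so 3 of 9 is to be read beside that share. In a fit of the 19460 probe sets with 1 gene symbol alone, 7743 were called, with 4 of the 9 genes. The median log2 difference was 4.6e-05 over the 9 genes and −0.024 over all probe sets. The study asked for an adjusted p under 0.001 together with a log2 change of more than 2 either way. In the present fit 0 of the 9 genes and 0.0511% of probe sets met that rule, by which the study itself reported more genes. *OSTN* met it when the fit was redone on probe sets with a mean above 5 (limma, adjusted p = 0.000897), above 6 (0.000365) or with 1 gene symbol (3.44e-05), and with an intensity trend in the variances (0.000413), but in no other setting. An unadjusted p below 0.05 was found for 4 of the 9 genes and for 36.4% of all probe sets. The arrays of the lines did not overlap for 5 of the 9 genes, against 62.8% of all probe sets. An exact permutation test, two-sided, has 0.333 as its smallest p with so few arrays.

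**Figure D1:**
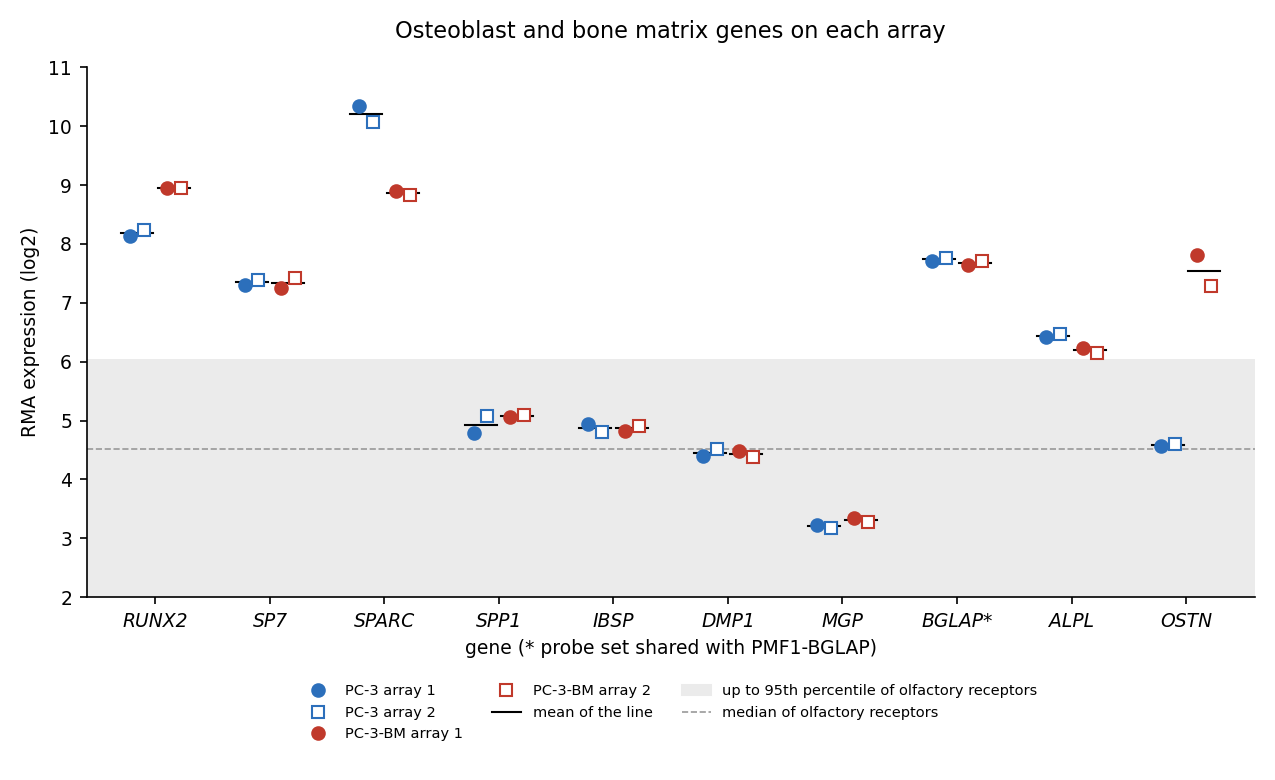
Level of the 9 genes, and of the probe set shared by *BGLAP* and *PMF1-BGLAP* (starred), on the horizontal axis, as RMA log2 expression (vertical axis) on the 4 arrays, with PC-3 in blue, PC-3-BM in red, circles for arrays numbered 1, squares for arrays numbered 2 and black bars for line means. *OSTN* moved from 4.58 to 7.54, out of the grey band that reaches to 6.04, the 95th percentile of olfactory receptor probe sets, whereas *SPP1*, *IBSP*, *DMP1* and *MGP* lay inside it in both lines.

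RMA values carry no detection call, so the 360 probe sets of olfactory receptors, genes that epithelial cells hardly use, served as a scale for dim signals. Their means over the 4 arrays had a median of 4.51 and a 95th percentile of 6.04 on the log2 scale. Of these probe sets 16 (4.44%) were called. Values of different probe sets were set against this scale only and do not rank the genes by abundance.

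Among the regulators, *RUNX2* rose and *SP7* did not pass. The log2 values of *RUNX2* were 8.13 and 8.24 on the PC-3 arrays and 8.95 and 8.94 on the PC-3-BM arrays, so both PC-3-BM arrays lay above both PC-3 arrays. The means were 8.19 ± 0.08 and 8.95 ± 0.00 (SD, n = 2), a 1.69-fold rise with a 95% interval of 1.48 to 1.94 (log2 difference 0.76, SE 0.07, limma, adjusted p = 0.00471). Both line means exceeded the means of all 360 olfactory receptor probe sets. By size of change *RUNX2* stood at rank 1972 of the 33297 probe sets.

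*SP7*, the zinc finger factor that follows *RUNX2* in osteoblast differentiation, read 7.30 and 7.39 in PC-3 and 7.25 and 7.43 in PC-3-BM. The PC-3 values fell between those of PC-3-BM, and the difference was −0.0079 (SE 0.09, 95% interval −0.24 to 0.23, limma, adjusted p = 0.963). Changes of *SP7* beyond about 1.17-fold upward or 0.844-fold downward lay outside that interval. Its means stood above 99.7% of the olfactory receptor probe sets in both lines.

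The secreted matrix protein *SPARC* fell. Osteonectin binds collagen and calcium and is abundant in bone. Its log2 values were 10.35 and 10.08 in PC-3 and 8.91 and 8.83 in PC-3-BM, with 1.17 log2 units between the nearest arrays of the lines. It fell by 1.34 (SE 0.11, limma, adjusted p = 0.00347), from 10.21 ± 0.19 to 8.87 ± 0.05 (SD, n = 2), with a 95% interval of the difference from −1.63 to −1.05. This is a 2.54-fold lower level, rank 387 by size, in a transcript bright on all 4 arrays.

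The SIBLING proteins, acidic glycoproteins that bind integrins and mineral, gave no difference that passed. *SPP1* read 4.79 and 5.07 in PC-3 and 5.06 and 5.09 in PC-3-BM, so the groups overlapped (difference 0.15, SE 0.11, 95% interval −0.14 to 0.43, limma, adjusted p = 0.408). *IBSP* read 4.94 and 4.80 against 4.83 and 4.91 (difference 4.6e-05, SE 0.08, interval −0.21 to 0.21). *DMP1* read 4.39 and 4.52 against 4.49 and 4.38 (difference −0.021, SE 0.08, interval −0.24 to 0.20). All 3 lay within the olfactory receptor range, between its 44.7 and 76.9 percentiles, where a probe set can hold no signal of its gene and a change may go unseen. These genes lie close together on chromosome 4 with the SIBLING genes *DSPP* and *MEPE*, chosen after their values were seen, which were also dim, with line means of 3.92 and 3.96 for *DSPP* and 3.84 and 3.78 for *MEPE*.

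The Gla proteins, which bind calcium through carboxylated glutamates, did not pass either. *MGP* had the lowest values of the set, 3.23 and 3.17 in PC-3 and 3.34 and 3.27 in PC-3-BM. The lines did not overlap, yet the gap between the nearest arrays was 0.041, and the difference of 0.10 (SE 0.07, 95% interval −0.083 to 0.29) did not pass (limma, adjusted p = 0.369). Its line means stood at the 0.556 and 1.67 percentiles of the olfactory receptors. The probe set shared by *BGLAP* and *PMF1-BGLAP* read 7.72 and 7.76 in PC-3 and 7.64 and 7.72 in PC-3-BM (difference −0.060, SE 0.07, interval −0.25 to 0.13, limma, adjusted p = 0.601). This signal was well above the olfactory receptors, but the share of it that stems from osteocalcin was not tested.

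*ALPL*, the phosphatase that splits pyrophosphate and so lets mineral form, read 6.42 and 6.47 in PC-3 and 6.23 and 6.16 in PC-3-BM. The lines did not overlap, and the means were 6.44 ± 0.04 and 6.20 ± 0.06 (SD, n = 2). The difference of −0.25 (SE 0.07, 95% interval −0.43 to −0.058) missed the threshold over all probe sets (limma, adjusted p = 0.0742). It passed where the fit was redone on fewer probe sets, with adjusted p = 0.0487 among those with a mean above 5, 0.0331 above 6 and 0.0298 among those with 1 gene symbol. It did not pass when any array was left out, with an adjusted p between 0.146 and 0.242. Its means were near the 97.2 and 95.6 percentiles of the olfactory receptors.

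*OSTN* showed the widest change of the set. The osteocrin transcript read 4.56 and 4.60 in PC-3, at the level of a median olfactory receptor (53.1 percentile), and 7.81 and 7.28 in PC-3-BM, above 99.7% of them. The gap between the nearest arrays was 2.68 log2 units, several times the 0.53 between the PC-3-BM arrays. The means were 4.58 ± 0.03 and 7.54 ± 0.37 (SD, n = 2), a 7.81-fold rise with a 95% interval of 5.64 to 10.8 (log2 difference 2.97, SE 0.18, limma, adjusted p = 0.00198). It took rank 20 by size among all probe sets. Since the PC-3 level cannot be told from a silent gene, the size of the rise is uncertain.

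**Figure D2:**
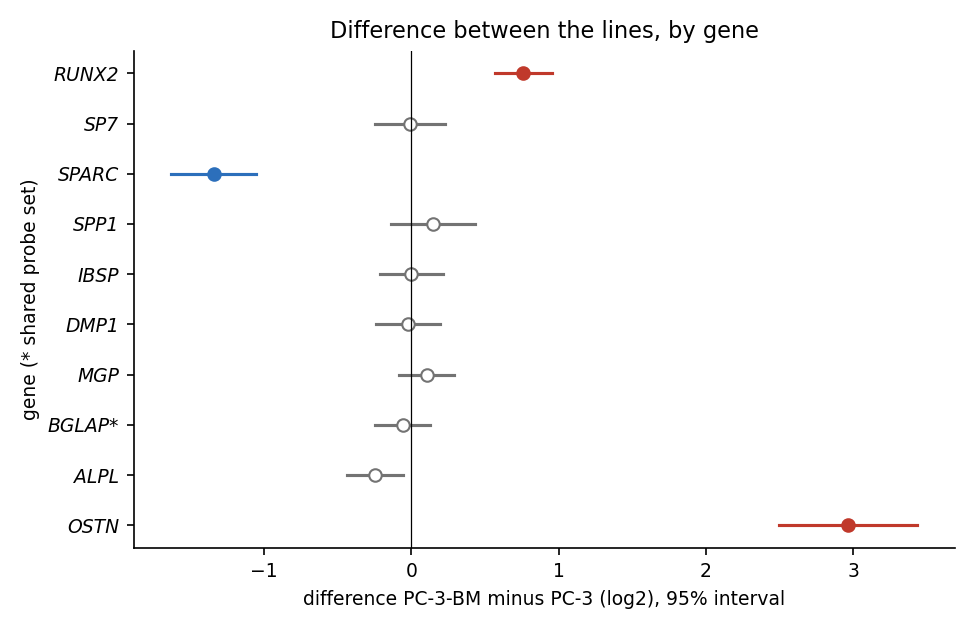
Log2 difference PC-3-BM minus PC-3 (horizontal axis) with its 95% interval for each of the 9 genes and the shared *BGLAP* probe set (starred, vertical axis), in red or blue and filled where the adjusted p was below 0.05. The intervals of *OSTN* (2.50 to 3.44), *RUNX2* (0.57 to 0.95) and *SPARC* (−1.63 to −1.05) lie far from 0, that of *ALPL* ends at −0.058, and the others span 0.

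**Figure D3:**
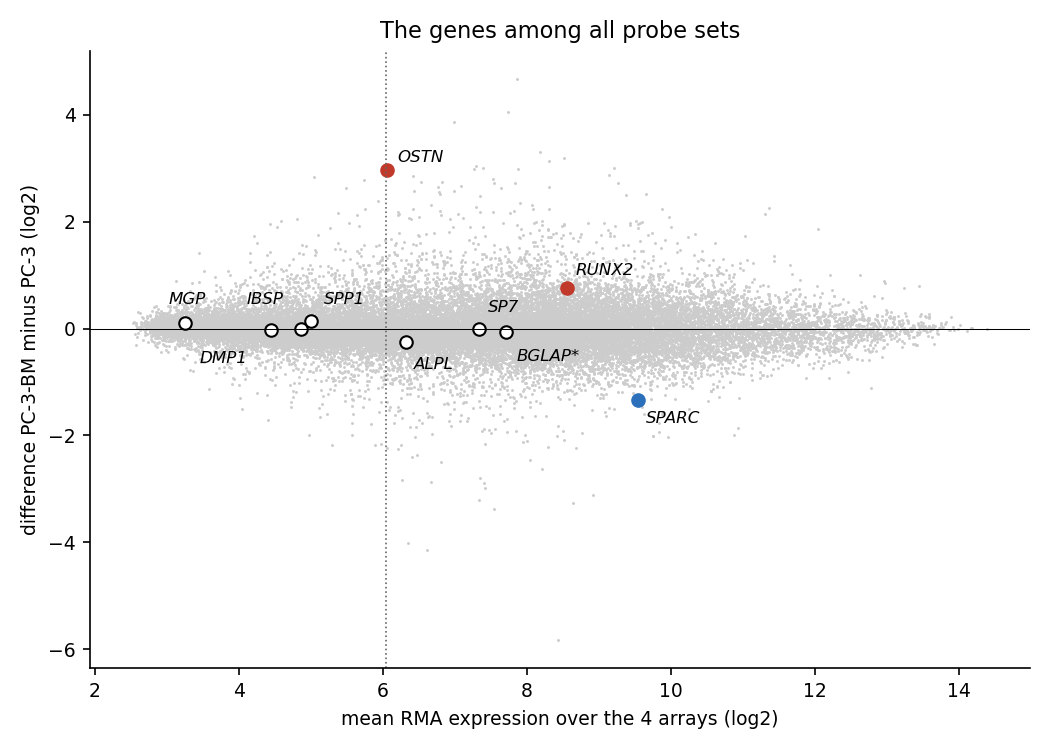
Log2 difference PC-3-BM minus PC-3 (vertical axis) against the mean of the 4 arrays (log2, horizontal axis) for all 33297 probe sets in grey, with the 9 genes and the shared *BGLAP* probe set (starred) as large circles, filled where the adjusted p was below 0.05, and a dotted line at 6.04, the 95th percentile of olfactory receptors. *OSTN* sits at the upper edge of the cloud, *SPARC* near the lower edge, and the SIBLING genes and *MGP* in its dim left end.

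Leaving out an array leaves 1 array in that line, so the spread then comes from the other line alone and the lone array is assumed to vary like it. Under that assumption *OSTN*, *RUNX2* and *SPARC* passed without any single array. The adjusted p then ran from 0.0151 to 0.0340 for *OSTN*, 0.0317 to 0.0423 for *RUNX2* and 0.0268 to 0.0324 for *SPARC* (limma). The log2 difference of *OSTN* stayed between 2.70 and 3.23, that of *RUNX2* between 0.71 and 0.81 and that of *SPARC* between −1.48 and −1.21.

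Neighbouring genes on the chromosome, looked up after the member values were seen, were read beside these 3. Of the 3 measured genes on either side, 0 of 6 around *RUNX2* on chromosome 6 were called, among them *SUPT3H* (difference 0.043, SE 0.07). Around *OSTN* on chromosome 3, none rose and 2 of 6 fell, *CLDN1* by 1.49 (SE 0.09) and the adjacent *UTS2B* by 0.84 (SE 0.08). Around *SPARC* on chromosome 5, 2 of 6 fell, *SLC36A1* by 0.41 (SE 0.07) and *G3BP1* by 0.39 (SE 0.07), each by less than *SPARC*.

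Likeness of pattern was measured as the root mean square difference of the 4 array values after centring each probe set on its own mean. Nearest to *OSTN* were *ATP6V0D2* (0.060 log2 units), *SLITRK6* (0.10) and *TNFSF15* (0.11). Nearest to *RUNX2* were *LHFPL6* (0.0062), *TGFBR1* (0.011) and *POGLUT3* (0.014), and to *SPARC* were *TRIM21* (0.036), *SH2D3A* (0.056) and *SCNN1G* (0.069). With 4 arrays of 2 lines, such likeness mostly repeats the size of the change.

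Genes around these 10 were read from 9 lists by role, with 106 of 108 genes measured by a probe set of their own. In all, 28 rose, 14 fell and 64 did not pass, with a median difference of −0.018. The lists hold only probe sets with 1 gene symbol. In a fit of such probe sets alone 7743 of 19460 were called, with 50 of the 106 genes. In the main fit the 42 called genes make 39.6%, beside 23.2% of all probe sets and 4.44% of the dim olfactory receptors, sets unlike the lists. Without PC-3 array 1 or PC-3 array 2 the number called was 20, and without PC-3-BM array 1 or PC-3-BM array 2 it was 23.

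**Figure D4:**
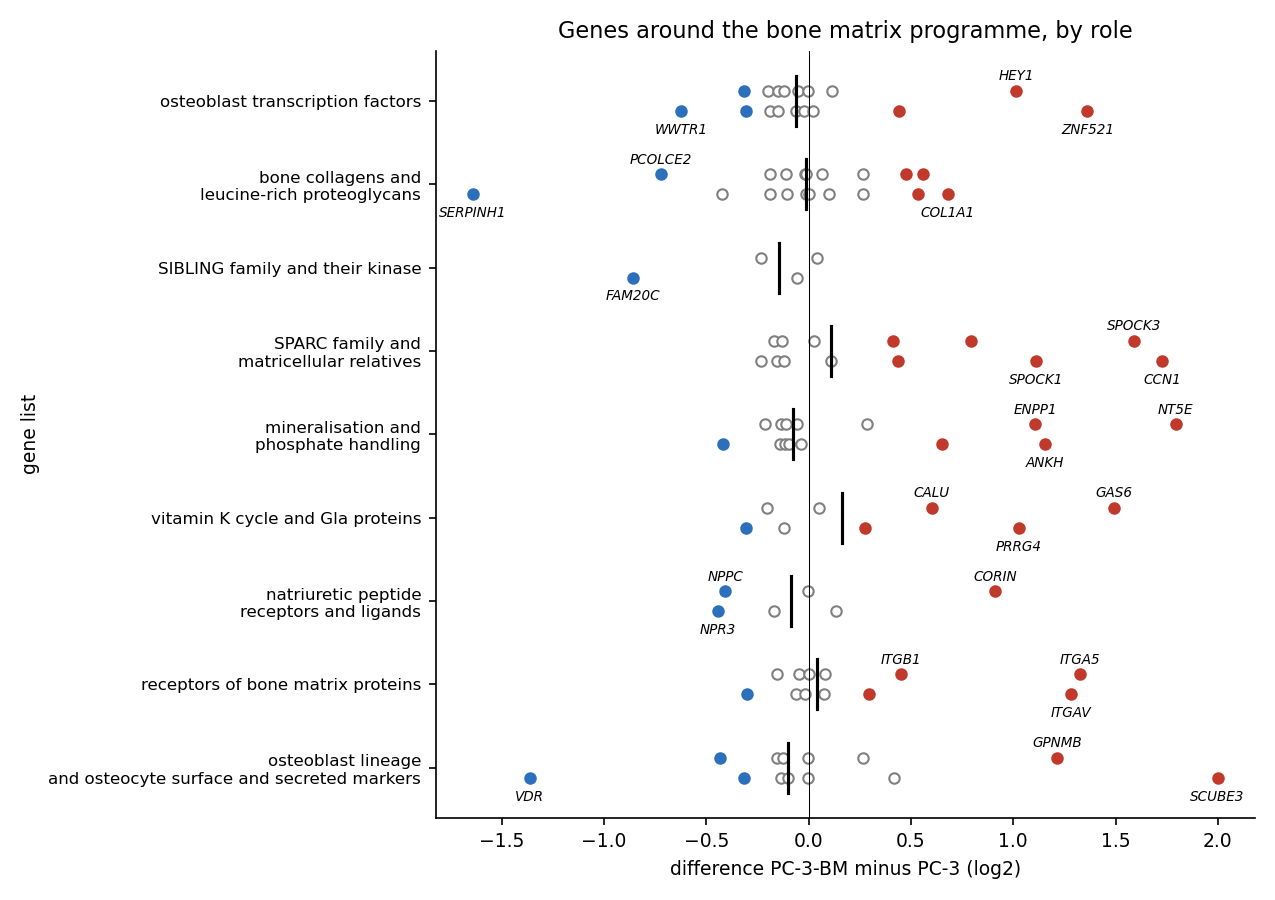
Log2 difference PC-3-BM minus PC-3 (horizontal axis) of the measured genes of 9 lists (vertical axis), each circle a gene, red where it rose, blue where it fell, open where it did not pass, and black bars at list medians. Gains reach 1.999 for *SCUBE3* and falls reach −1.64 for *SERPINH1*, while every list median lies between −0.14 and 0.16.

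Of 17 osteoblast transcription factors 3 rose and 3 fell, with a median of −0.060, and 2 to 3 were called when an array was left out. *ZNF521*, a zinc finger protein known to hold back RUNX2, rose by 1.36 (SE 0.13), from 5.21 and 5.17, within the olfactory receptor range, to 6.72 and 6.39, so the size of its rise is uncertain. *HEY1*, a Notch target also known to restrain RUNX2, rose 2.02-fold, from 9.35 and 9.29 to 10.40 and 10.26. *WWTR1* (TAZ), a coactivator of RUNX2, fell by 0.62 (SE 0.09). Its adjusted p of 0.00996 rose to between 0.0511 and 0.0650 without PC-3 array 1, PC-3 array 2 or PC-3-BM array 2 (limma). *CBFB*, the DNA-binding partner of RUNX2, chosen after its values were seen, differed by 0.11 (SE 0.08, limma, adjusted p = 0.393).

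Of 19 bone collagens, their processing proteins and leucine-rich proteoglycans 4 rose and 2 fell (median −0.012), and 2 to 4 were called when an array was left out. *COL1A1*, a chain of collagen I, rose 1.60-fold, from 8.21 and 8.10 to 8.83 and 8.85. Its partner chain *COL1A2*, chosen after its values were seen, differed by −0.11 (SE 0.07, limma, adjusted p = 0.336). *SERPINH1*, the collagen chaperone HSP47, fell by 1.64 (SE 0.11), from 9.20 and 8.98 to 7.55 and 7.36. *PCOLCE2*, which enhances trimming of procollagen, fell by 0.72 (SE 0.12) and missed the threshold without PC-3 array 1, PC-3 array 2 or PC-3-BM array 1 (limma, adjusted p = 0.0605 to 0.0951).

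*FAM20C*, the Golgi kinase that phosphorylates SIBLING proteins, was the 1 gene of 4 called in the SIBLING list. It fell by 0.86 (SE 0.11), from 7.77 and 7.84 to 6.82 and 7.07, and missed the threshold without PC-3 array 1 or PC-3 array 2 (limma, adjusted p = 0.0558 and 0.0633).

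Of 13 relatives of *SPARC* and matricellular proteins 6 rose and 0 fell (median 0.11), and 4 were called whichever array was left out. *CCN1*, an integrin-binding matricellular protein, rose 3.32-fold, from 10.22 and 10.11 to 11.89 on both PC-3-BM arrays. The SPARC-related proteoglycans *SPOCK3* and *SPOCK1* rose 3.01-fold and 2.16-fold. The called genes of this list moved opposite to *SPARC* itself.

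Of 14 genes of mineralisation and phosphate handling 4 rose and 1 fell (median −0.075), and 4 were called whichever array was left out. *ENPP1*, which makes the mineral inhibitor pyrophosphate, rose 2.16-fold, from 10.11 and 10.06 to 11.21 and 11.17. *ANKH*, which exports ATP and pyrophosphate, rose 2.23-fold, from 8.03 and 8.13 to 9.30 and 9.17. *NT5E* (CD73), which turns AMP into adenosine and phosphate, rose 3.47-fold, from 8.96 and 8.73 to 10.63 and 10.64. *PHOSPHO1*, a phosphatase that starts mineral formation and the gene of this list that fell, chosen after its values were seen, fell by 0.42 (SE 0.09, limma, adjusted p = 0.0295).

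Of 8 genes of the vitamin K cycle and its Gla products 4 rose and 1 fell (median 0.16), and 2 to 3 were called when an array was left out. *GAS6*, the Gla ligand of TAM receptors, rose 2.81-fold, from 6.45 and 6.62 to 8.04 and 8.01. *PRRG4*, a transmembrane Gla protein, rose 2.04-fold. *CALU* (calumenin), an inhibitor of the carboxylase, rose 1.52-fold and missed the threshold without PC-3 array 2, PC-3-BM array 1 or PC-3-BM array 2 (limma, adjusted p = 0.0669 to 0.0807). The carboxylase *GGCX*, chosen after its values were seen, differed by −0.12 (SE 0.07, limma, adjusted p = 0.280).

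Osteocrin binds the natriuretic peptide clearance receptor, and of 6 measured genes of that system 1 rose and 2 fell (median −0.087). The clearance receptor *NPR3* read 7.30 on both PC-3 arrays and 6.82 and 6.88 on the PC-3-BM arrays. It fell by 0.44 (SE 0.07, limma, adjusted p = 0.0135), opposite to *OSTN*. *NPPC*, encoding C-type natriuretic peptide, fell by 0.41 (SE 0.08), and *CORIN*, a protease that activates atrial natriuretic peptide, rose by 0.91 (SE 0.12), a size that is uncertain because its PC-3 values of 5.43 and 5.35 lay within the olfactory receptor range. Leaving out any of the 4 arrays ended the calls of *NPR3* (limma, adjusted p = 0.0527 to 0.0817) and *NPPC* (0.0580 to 0.129), and leaving out PC-3 array 1 or PC-3 array 2 ended that of *CORIN* (0.0598 and 0.0706), so 0 to 1 were called.

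Of 12 receptors of bone matrix proteins 4 rose and 1 fell (median 0.039), and 2 were called whichever array was left out. The αv integrin *ITGAV*, a receptor subunit for osteopontin and bone sialoprotein, rose 2.44-fold, from 8.75 and 8.74 to 10.001 and 10.06. Of the β integrins, *ITGB3*, the gene of this list that fell, did so by 0.30 (SE 0.07, limma, adjusted p = 0.0378). *ITGB5* rose by 0.29 (SE 0.07, limma, adjusted p = 0.0367), and both were chosen after their values were seen. The fibronectin receptor subunit *ITGA5* rose 2.51-fold, from 8.84 and 8.80 to 10.17 and 10.13. *ITGB1* rose 1.37-fold and lost its call when any of the 4 arrays was left out (limma, adjusted p = 0.0584 to 0.0767). *CD44*, an osteopontin receptor chosen after its values were seen, differed by −0.045 (SE 0.07).

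Of 13 surface and secreted markers of the osteoblast lineage and osteocytes 2 rose and 3 fell (median −0.10), and 3 to 4 were called when an array was left out. *SCUBE3*, a secreted EGF-domain protein, rose by 1.999 (SE 0.08), from 8.66 and 8.54 to 10.60 on both PC-3-BM arrays. *GPNMB* (osteoactivin) rose by 1.21 (SE 0.10), from 5.68 and 5.90 to 7.03 and 6.98. *VDR*, the vitamin D receptor that is known to induce *BGLAP* and *SPP1*, fell by 1.36 (SE 0.12), from 6.58 and 6.91 to 5.35 and 5.41. The lower level of *GPNMB* and of *VDR* lay within the olfactory receptor range, so the sizes of both changes are uncertain.

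Markers of other cell types were read beside these values. Host cells in the bones would be of mouse, whereas the array is made for human genes. How its probe sets read mouse RNA was not tested, so these markers do not measure the share of host cells. Of 6 markers that PC-3 cells are known to express, 1 rose, 3 fell and 2 did not pass. *CAV1* rose by 0.72 (SE 0.07), the epithelial markers *KRT8*, *KRT18* and *EPCAM* fell by 2.03 (SE 0.10), 0.40 (SE 0.09) and 1.30 (SE 0.09), and *VIM* and *CD44* differed by 0.077 (SE 0.07) and −0.045 (SE 0.07). *EPCAM* read 5.56 and 5.64 in PC-3-BM, within the olfactory receptor range, so the size of its fall is uncertain. The line means of 2 prostate luminal markers, *KLK2* and *KLK3*, lay below the 95th percentile of the olfactory receptors. Of 5 endothelial markers 2 rose, *PECAM1* by 0.45 (SE 0.07) and *ESAM* by 1.17 (SE 0.08). The summed linear signal of the 5 went from 338 to 342 in PC-3 to 522 to 558 in PC-3-BM. A dimmer *PECAM1* probe set, left out of that sum, rose by 1.87 (SE 0.17), from a PC-3 mean of 4.34 to 6.21. *CDH5*, *VWF* and *TEK* stayed below the 95th percentile of the olfactory receptors. Of 6 blood markers 1 rose, *CD68*, which was already bright in PC-3 (10.66 on both arrays, against 11.43 and 11.32 in PC-3-BM). It made up most of the summed signal of the 6 (1849 to 1852 against 2792 to 2993). The other 5 did not pass, and *PTPRC* stayed between 3.70 and 4.05. Of 5 osteoclast markers 0 were called (295 to 319 against 311 to 341). The part of other cells, host cells among them, in the results on the 10 genes was not tested. In bulk RNA, a change in the share of cells that express a gene and a change in RNA per cell cannot be told apart.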

How the data were processed

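Expression of 10 osteoblast and bone matrix genes was compared between PC-3 and PC-3-BM cells, with 2 arrays per line grouped by the sample titles. Per the labels and methods, RNA was amplified, labelled with biotin and hybridised to 1-colour Affymetrix Human Gene 1.0 ST arrays, and the authors deposited log2 expression values made by RMA, a method that removes background, brings the arrays to near-equal distributions and merges probes into probe sets. A change common to all transcripts of a line would thus be hidden. Limma 3.24 and R 3.2 are named in the submitters' processing notes, and the genome build is not given in the sources used here. The deposited log2 values of 33297 probe sets were used as they stood.

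Probe sets with 1 gene symbol in the platform annotation (19460) were given to that gene, the brightest where there were several. PC-3-BM minus PC-3 was fitted in limma 3.58.1 (R 4.3.3) with empirical Bayes moderation, adjusting p over all probe sets by Benjamini-Hochberg, and the fit was tested on simulated data. Intervals are 95% and use the moderated variance, with 2.88 prior and 2 residual degrees of freedom. Promoters came from RefSeq (GRCh38.p14) by symbol, for 8 of the 10 genes. The members, lists and tests were chosen with earlier results of these data known. All 10 genes are named, with up to 3 called genes of each list by size of change, *NPR3* and the 3 nearest patterns of each member that passed. Alternatives were median centring, repeated quantile normalization, filters on dim probe sets, 1-symbol probe sets alone, trended and robust moderation, a replicate block and leaving out each array.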

Additional observations from a re-analysis of the deposited data

How the results depend on the processing

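The calls of *OSTN*, *RUNX2* and *SPARC* and the lack of a call for *SP7* were the same in all 12 settings. *SPP1* was tested in 11 settings and *IBSP*, *MGP* and *DMP1* in 10, because filters on dim probe sets removed them from the others. None of them was called in any setting. *ALPL* (−0.25) passed among probe sets with a mean above 5 or above 6 and among those with 1 symbol, where the fit was redone on fewer probe sets. Small differences changed sign. *SP7* went to 0.027 with median centring and 0.0058 with quantile normalization (−0.094 to 0.078 without single arrays), *IBSP* to −0.0079 with quantile normalization (−0.067 to 0.068 without single arrays) and *DMP1* to 0.014 with median centring (−0.084 to 0.042 without single arrays). Without single arrays, where 1 line has no spread of its own, 2238 to 3854 probe sets and 20 to 23 context genes were called. The arrays share only a number between the lines (correlation of deviations −0.017), and with it as a replicate block 6473 of 33297 probe sets, 3 of 9 members and 34 of 106 context genes were called, with 3 each, in place of 6, 5 and 5, among transcription factors, vitamin K genes and receptors. At the study's thresholds 17 probe sets passed, 0 with the block or when any single array was left out, and 17 to 99 in the other settings, with *OSTN* among them in 4. Of 25 named context genes 17 kept their call in every setting that tested them and 8 lost it only when an array was left out. *ZNF521*, among the 17, and *CORIN*, among the 8, were tested in 11 settings. No member had a further probe set, so that alternative gave no value. The number of arrays, 2 per line, limits all of these values, and in 4 of the 9 genes so does a signal no brighter than that of olfactory receptors.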
